A study of Arabidopsis thaliana with 36 samples.

Results

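The genes described here are the 135 that the authors' deposited table lists for the pAtUBQ10>>miR165a line against ap1cal at 8 h after dexamethasone, out of 446 distinct genes listed in the 12 tables of the series. Every row of that table was taken, and the genes were split by whether the table for the activator line, pAtUBQ10::GR-LhG4 against ap1cal at 8 h, lists them as well (38 genes) or not (97 genes). The table holds 100 genes that were higher in the miR165a line than in ap1cal and 35 that were lower. These are 0.263% and 0.0919% of the 38094 genes of the reference annotation, which stands in for the number of genes tested because the tables do not give that number. To be listed, a gene had to reach a log2 fold change of 1 in size at an adjusted p of 0.05 or less.

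RNA-Seq was done on shoot apical meristems (SAM) of Arabidopsis thaliana, with 36 libraries over 3 lines and 4 time points. All plants carried the ap1-1 cal-1 mutations, under which many meristems form where flowers would be. The miR165a line carried, on a single T-DNA, the activator GR-LhG4 under the broadly active UBIQUITIN 10 promoter and a miR165a precursor behind the operator that LhG4 binds. The GR-LhG4 line carried the activator cassette alone, and ap1cal plants carried neither. SAM of each line, the ap1cal controls included, received 10 µM dexamethasone with 0.015% Silwet L-77 once and were collected 8 h later, with 3 libraries for the miR165a line, 3 for GR-LhG4 and 3 for ap1cal. Transgenic plants were of the T2 generation, and how many insertion lines were pooled is not given in the sources used here. The growth light is given as long days in the labels and as continuous light in the methods of the study. Since ap1cal lacks the activator, a difference between the miR165a line and ap1cal at 8 h holds the effect of the activator and that of the miR165a cassette together. The constructs were transformed separately and every library was collected after dexamethasone. Differences between the lines that were present before induction are therefore held in the folds as well. The tables give 1 fold change per gene with its standard error (SE), and values per library, their spread and library depth were not analysed here.

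The microRNAs of the miR165 family and its near-identical sister family pair with the transcripts of class III homeodomain leucine zipper (HD-ZIPIII) genes and lead to their cleavage. HD-ZIPIII proteins promote the adaxial side of leaves, meristem function and vascular patterning, and the microRNAs restrict them to the adaxial side and the center of the SAM. HD-ZIPIII proteins activate the LITTLE ZIPPER genes (ZPR), whose small proteins bind HD-ZIPIII proteins and inhibit them. In this inducible system, dexamethasone lets the GR-LhG4 fusion, which has the DNA-binding domain of the bacterial lac repressor, enter the nucleus.

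The mature sequence is shown because it defines which transcripts can be direct targets. In the RefSeq annotation of TAIR10.1, miR165a-3p lies at chr1:78932-78952 on the minus strand, within the MIR165A gene (AT1G01183), and its seed, bases 2 to 8, is in capitals.
miR165a-3p: uCGGACCAggcuucauccccc
An ungapped search of the spliced transcripts of 38069 genes for its reverse complement found 7 genes (0.0184%) with at most 4 mismatches, and the 5 HD-ZIPIII genes were among them. Their sites, read 5′ to 3′ in the transcript, have the mismatched bases in capitals, with pairs of G and U also counted as mismatches.
REV: CTgggatgaagcctggtccgG
ATHB8: CTgggatgaagcctggtccgG
PHB: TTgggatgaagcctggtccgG
PHV: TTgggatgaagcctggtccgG
ATHB15: CTggAatgaagcctggtccgG
All 5 sites lie in coding sequence and pair with every base of the seed, with 3 mismatches in REV, ATHB8, PHB and PHV and 4 in ATHB15. Each site is joined from 2 exons, so the ATHB15 site spans chr1:19412976-19413085 on the minus strand with an intron of 89 bases in it. The other 2 genes with such a match, HAF01 and SQP1, had 2 and 1 mismatches within the seed, and neither was listed at 8 h.

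MIR165A RNA was among the largest rises at 8 h. Its log2 fold change over ap1cal was 4.38 (SE 0.17), a 20.8-fold higher level, and its fold over GR-LhG4 was 4.27, which leaves 0.11 for GR-LhG4 over ap1cal by subtraction. Transgene reads and reads of the native locus cannot be told apart, and a poly(A) library measures the precursor and not the mature microRNA. Of the 8 precursors of the same microRNA group other than MIR165A, none was listed at 8 h.

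ATHB15 was the 1 HD-ZIPIII gene of 5 listed at 8 h, and the 1 gene of the 135 with a miR165a site of at most 4 mismatches. ATHB15, also named CORONA and known for its role in meristem and vascular development, had a log2 fold change of -1.29 (SE 0.06), or 0.408 times the ap1cal level, and -1.23 over GR-LhG4. REV, PHB, PHV and ATHB8 were not listed at 8 h, which says that their folds or adjusted p values missed a threshold. ATHB8, which acts in procambium, was listed at 4 h alone, at -1.04. Apart from ATHB15, the best match to miR165a in the transcripts of the listed genes had 6 to 11 mismatches (median 9), and the median over all genes scanned was also 9.

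The LITTLE ZIPPER genes fell with it. ZPR3 had a log2 fold change of -1.54 (SE 0.17), ZPR2 of -1.22 and ZPR1 of -1.11, so 3 of 4 members were listed as lower and ZPR4 was not listed. Over GR-LhG4 at 8 h, ZPR3 alone was listed (-1.43). None of the 3 was listed at 4 h against ap1cal, and all 3 were listed at 12 h, at -2.11 for ZPR3, -1.58 for ZPR2 and -2.14 for ZPR1. The ZPR1 fall was smaller at 8 h than at 12 h by 1.03 (SE 0.24, adjusted p = 2.76e-04 by the Wald test over time points, with Benjamini-Hochberg adjustment). The 8 abaxial identity genes of the KANADI, YABBY and ARF families and the 8 shoot meristem markers, which include STM, WUS and CLV3, were all absent from the 8 h table.

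**Figure D1:**
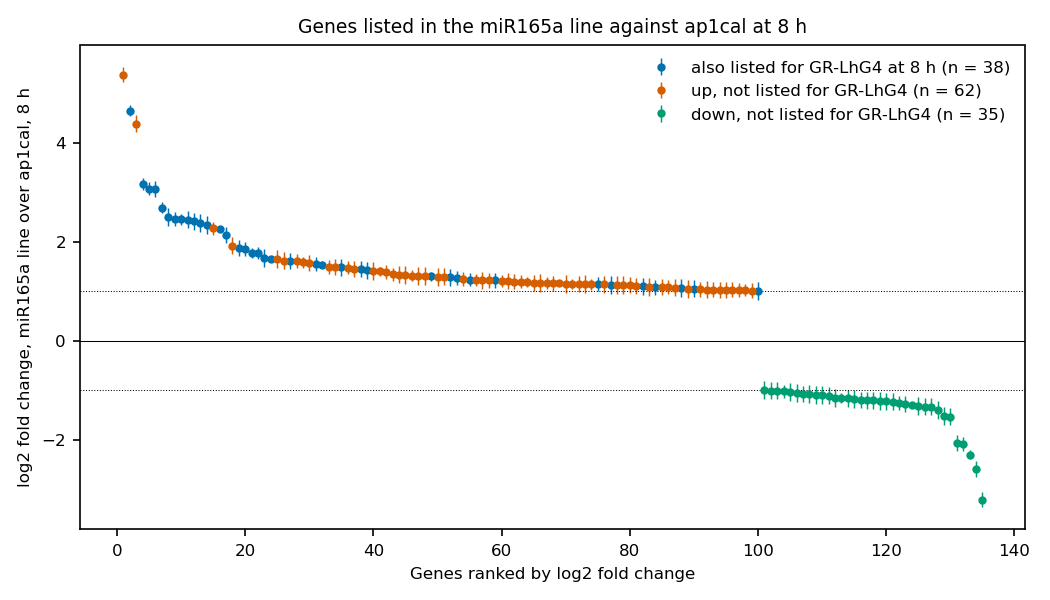
log2 fold change in the miR165a line over ap1cal at 8 h for the 135 listed genes, ranked, with standard errors as bars and dotted lines at the fold threshold. Blue points are the 38 genes also listed for GR-LhG4 at 8 h, orange points the 62 other genes that were higher, and green points the 35 that were lower; every gene shared with GR-LhG4 was higher.

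The genes shared with the activator line were all higher in the miR165a line. Of the 42 genes listed for GR-LhG4 over ap1cal at 8 h, 41 were higher (0.108% of annotated genes) and 1 was lower (0.00263%). The miR165a line shared 38 of them, which is 90.5% of the GR-LhG4 list and 28.1% of the miR165a list, and all 38 were higher in both. The comparisons use the same ap1cal libraries, so this count is not independent support for either. The 4 genes of the GR-LhG4 list absent from the miR165a table were AT4G21970 (1.17), AT1G29660 (1.35), PUM11 (1.61) and AT2G32870 (-1.06), given with their log2 folds in GR-LhG4.

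Among the 38 shared genes, the log2 folds in the miR165a line ran from 1.00 to 4.65 with a median of 1.66, and those in GR-LhG4 from 1.01 to 3.48 with a median of 1.47. The miR165a fold was the higher one for 24 genes and the lower one for 14, and the difference between them had a median of 0.13. For 35 of the 38 the difference between the lines was under the fold threshold. The remaining 3 were also listed for the miR165a line over GR-LhG4, and they are a sulfate transporter, a lipid oxidase and a hormone enzyme. AST91, a sulfate transporter of the SULTR3 group, had a log2 fold of 4.65 (SE 0.12) in the miR165a line and 3.48 (SE 0.12) in GR-LhG4, with 1.17 between the lines. ALPHA DOX2, an alpha dioxygenase that oxidizes fatty acids, had 3.07 (SE 0.13) in the miR165a line and 2.02 (SE 0.14) in GR-LhG4. GA3OX1, which makes bioactive gibberellin, had 3.06 (SE 0.16) in the miR165a line and 1.34 (SE 0.18) in GR-LhG4, and its 1.72 between the lines was the largest of the shared genes.

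Next in the size of that difference were AT1G55950, at 2.34 (SE 0.18) in the miR165a line and 1.34 (SE 0.18) in GR-LhG4, and the LEA gene AT3G44220, at 3.16 (SE 0.13) in the miR165a line and 2.18 (SE 0.13) in GR-LhG4. Both lay just below the threshold of 1 between the lines, at 0.99 and 0.98. At the other end, the pectin lyase-like gene AT3G61490 had 1.77 (SE 0.10) in the miR165a line and 2.40 (SE 0.10) in GR-LhG4, the widest gap in that direction at -0.63. ADS1, a MATE efflux carrier, had 1.30 (SE 0.09) in the miR165a line and 1.64 (SE 0.09) in GR-LhG4. The kinase gene AT1G70430 (-0.27), the receptor-like protein gene RLP33 (-0.20) and AT2G36950 (-0.17) followed. These differences share the ap1cal libraries on both sides and were given no test.

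Other shared genes belonged to several functions. STP1, a hexose importer, had a log2 fold of 2.69 (SE 0.11) in the miR165a line and 2.28 in GR-LhG4, and NAC1, a transcription factor of lateral root formation, 1.88 in the miR165a line and 1.93 in GR-LhG4. WOX14, a homeobox gene of the WUSCHEL family active in vascular tissue, had 1.61 in the miR165a line and 1.46 in GR-LhG4. These pairs lay closer together than those of AST91, ALPHA DOX2 and GA3OX1, which follows from the fold threshold that set those genes apart. The shared rises of 2.26 and over in the miR165a line also held the TRAF-like gene AT5G26290 (2.49), the aspartyl protease gene AT2G39710 (2.46), the glycosyl hydrolase gene AT5G67460 (2.45), AT3G19430 (2.45), AT4G14819 (2.41), EXPA2 (2.38) and the hydrolase gene AT1G80280 (2.26). All 38 shared genes are protein-coding.

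**Figure D2:**
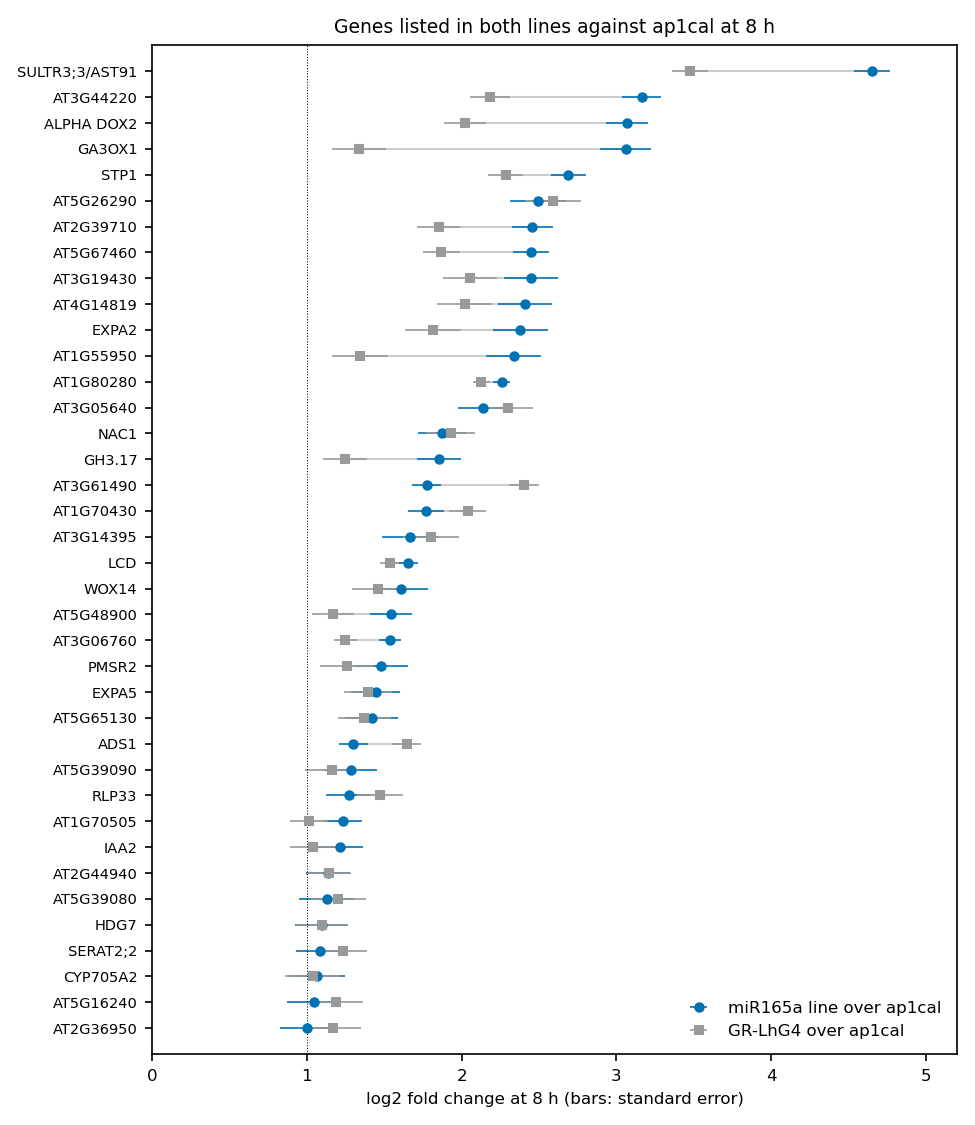
log2 fold change over ap1cal at 8 h of the 38 shared genes in the miR165a line (blue circles) and in GR-LhG4 (grey squares), with standard errors as bars and a dotted line at the fold threshold. GA3OX1 shows the widest gap, 3.06 in the miR165a line and 1.34 in GR-LhG4, and for AT3G61490 the GR-LhG4 value is the higher one, at 1.77 in the miR165a line and 2.40 in GR-LhG4.

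The lac operator half-site TGTGAGC, searched on both strands from 250 bases before to 50 bases after each gene's annotated start, was in 0 of the 38 shared genes, 5 of the 97 others and 607 of 38092 genes (1.59%). This window and motif were chosen after the values had been seen, and a missing match says only that these letters are not in this window.

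The 97 genes not listed for GR-LhG4 were 62 that were higher and 35 that were lower. The log2 folds of the 62 had a median of 1.19, against 1.66 for the 38 shared genes, and 18 of the 62 had a mean normalized count below 50, against 3 of the 38. The miR165a line over GR-LhG4 lists 59 genes as higher (0.155% of annotated genes) and 31 as lower (0.0814%) at 8 h. Of the 62 unshared rises, 22 were among the 59, and of the 35 falls, 20 were among the 31. For these 42 genes the fold of GR-LhG4 over ap1cal follows by subtraction, and it ran from -0.21 to 0.95 (median 0.02) for the rises and from -0.48 to 0.32 (median -0.08) for the falls. Since these genes were taken for a difference of at least 1 between the lines, a rise could have at most its own fold less 1 in GR-LhG4, so the upper side of these values is set by the choice. The highest was that of FMO (AT1G12200), a flavin monooxygenase gene, at 2.27 (SE 0.14) in the miR165a line and 0.95 by subtraction in GR-LhG4. For GR-LhG4 over ap1cal at 8 h, 0.108% of annotated genes were listed as higher. The shares at the other time points were not worked out here. Of the 62 unshared rises, 11 were listed for GR-LhG4 over ap1cal at another time point. FMO (1.56, 1.19 and 1.46 at 4, 12 and 16 h), BNQ2 and AT5G44680 were listed there at all 3 other time points, AST56 (1.11 and 1.14) and SUC1 at 12 and 16 h, and MYB3 (1.57) and LBD11 (1.06) at 4 h alone.

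The other 55 genes, 40 higher and 15 lower, were listed in neither comparison with the activator line. If the fold threshold kept them out of both, the activator line's own log2 fold for a rise lay between 1 and the gene's fold less 1. This gives a lower end of 0.02 to 0.58 over the 40 rises. For a fall it lay between -1 and the gene's fold plus 1, an upper end of -0.34 to -0.002 over the 15 falls. These 55 genes had folds between -1.34 and 1.58, and in the 8 h tables the activator and the miR165a cassette cannot be told apart for them. Over GR-LhG4 at 8 h, 0.155% of annotated genes were listed as higher and 0.0814% as lower. The shares at the other time points were not worked out here. At other time points 18 of the 55, 13 higher and 5 lower, were listed over GR-LhG4. They included PHO1 (1.53 and 1.69), ZPR2 (-1.24 and -1.30) and ZPR1 (-1.705 and -1.72), each at 12 and 16 h. AT5G06770 was among them at 4, 12 and 16 h (1.06, 1.12 and 1.11).

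**Figure D3:**
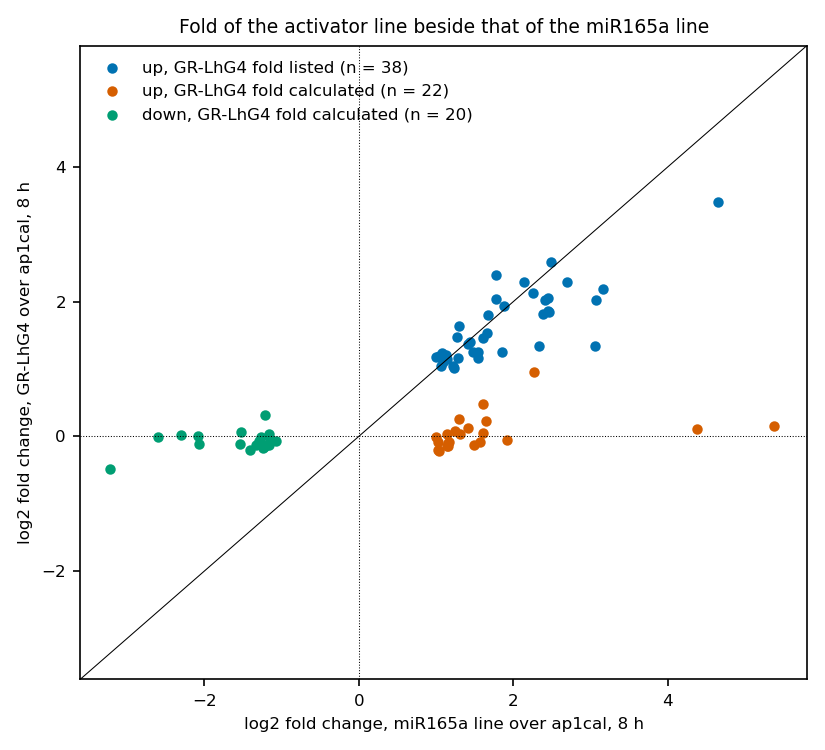
log2 fold change of GR-LhG4 over ap1cal at 8 h against that of the miR165a line over ap1cal for the 80 genes where it is listed (38 genes, blue) or follows by subtraction (22 higher genes, orange, and 20 lower genes, green); the diagonal marks equal folds. Shared genes had to reach a GR-LhG4 fold of 1 and the others a gap of 1 between the lines, so the separation of the groups follows from the choice, and the 55 genes listed in neither comparison are not drawn; both axes share the ap1cal libraries.

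The largest unshared rise was in SADHU3-2 (AT3G42658), a member of the Sadhu family of retroelement-derived genes annotated as a pseudogene. It had a log2 fold of 5.38 (SE 0.14), or 41.5-fold, over ap1cal and 5.22 over GR-LhG4. After MIR165A and FMO came AT1G53260 (1.92, SE 0.18), the ABC transporter gene ABCG21 (1.65) and the sulfate transporter AST56 (1.61). The P450 gene AT3G44970 (1.61) followed, at a mean normalized count of only 5.87 over all libraries. MYB3 (1.47), a repressor of phenylpropanoid genes, LBD11 (1.45) and PHO1 (1.32), which exports phosphate to the xylem, were higher as well. The gene named FLS2 in the annotation (AT5G63580, 1.24) is flavonol synthase 2 and not the flagellin receptor.

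The 35 falls had log2 folds between -3.22 and -1.002 with a median of -1.21, and 0 of the 35 were listed for GR-LhG4 at any time point. In GR-LhG4 over ap1cal at 8 h, only 1 gene was listed as lower (0.00263% of annotated genes). With so few falls there, a count of 0 at 8 h does not set the 35 apart from other genes. Shares of lower genes in GR-LhG4 at 4, 12 and 16 h were not worked out. The largest fall was in AT3G43350 (-3.22, SE 0.15), a pseudogene, with 0.108 times the ap1cal level. AT3G29644, a long noncoding RNA, followed at -2.60 (SE 0.16), the kinase gene AT1G48490 at -2.30 (SE 0.09), AT3G44690 at -2.08 (SE 0.14) and the pseudouridine synthase family gene AT3G43340 at -2.06 (SE 0.16). These 5 genes were lower over GR-LhG4 as well, with calculated GR-LhG4 folds near 0 except for AT3G43350 (-0.48). ZPR3, AT3G29642 (-1.52), AT3G30700 (-1.40), WRKY46 (-1.34) and AT5G19240 (-1.33) complete the 10 largest falls. Among the smaller ones, ABCC2 (-1.21) and ABCC9 (-1.17) are ABC transporters of the MRP group, ABCG33 (-1.01) is another ABC transporter, and IRX15 (-1.11) acts in xylan synthesis.

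Of the 35 falls, 13 lay on chromosome 3 (37.1%), which holds 20.0% of annotated genes. The 8 of them that start between 11.3 and 16.2 Mb, around the centromere, were AT3G29410, AT3G29642, AT3G29644, AT3G30416, AT3G30700, AT3G43340, AT3G43350 and AT3G44690. This interval, drawn from the genes themselves after their positions were seen, holds 3.2% of annotated genes and 22.9% of the falls, and 5 of its 8 falls are pseudogenes or noncoding RNA. It also holds 2 of the 100 rises, SADHU3-2 and the shared gene AT3G44220.

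Neighbouring listed genes changed in the same direction in each of the 5 pairs within 10000 bases. As 100 of the 135 genes were higher, agreement in direction is the more frequent outcome for any pair of them, and the count was not tested. AT3G43340 (-2.06) and AT3G43350 (-3.22) are 221 bases apart on opposite strands. AT3G29642 (-1.52) and AT3G29644 (-2.60) overlap by 471 bases and are read from opposite strands, and since no strand option of the counting is stated their reads may not be told apart. The methyl esterase genes ACL (1.02) and MES3 (1.38) and the acyltransferase genes AT5G39080 (1.13) and AT5G39090 (1.28) are adjacent members of gene families, where reads of similar copies could be split between them. AT3G05640 (2.14) and RLP33 (1.27) are the remaining pair, 5589 bases apart.

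Genes of sulfur uptake and assimilation were among the rises. Of 12 sulfate transporters, AST91 (4.65) and AST56 (1.61) were higher and 10 were not listed. Of 13 sulfate assimilation genes, 3 were higher: APR2 (1.20, SE 0.16) and APR3 (1.09, SE 0.18), which reduce activated sulfate, and SERAT2;2 (1.08, SE 0.15), which makes the precursor of cysteine. AST91 and SERAT2;2 were shared with GR-LhG4, and SERAT2;2 stood at 1.24 in the activator line. LCD, a cysteine desulfhydrase outside these lists, was 1.66 (SE 0.06) in the miR165a line and 1.53 in GR-LhG4. APR3 was listed at 8 h alone.

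Growth regulator genes changed in small numbers. Of 16 gibberellin oxidase genes, GA3OX1 (3.06) and GA3OX3 (1.01, SE 0.15) were higher and 14 were not listed. GA2OX2, among the 14, was listed at 8 h over GR-LhG4 (1.12) and not over ap1cal. Of 16 auxin response genes, GH3.17 (1.85, SE 0.14), which conjugates auxin to amino acids, and IAA2 (1.22, SE 0.15), an auxin-induced repressor, were higher, and both were shared, at 1.25 and 1.04 in GR-LhG4. GA3OX3, by contrast, had a calculated fold of 0.00 in GR-LhG4 and was listed against ap1cal at 8 h alone. LOG5, which releases active cytokinin, was higher by 1.03 and likewise listed against ap1cal only at 8 h.

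Among transcription factor lists, 1 of 10 NF-YA genes, NF-YA2 (1.14, SE 0.11), and 1 of 6 genes of the SOC1 clade, AGL71 (1.41, SE 0.09), were higher. NF-YA3 (1.04) and NF-YA6 (1.18) were listed at 8 h over GR-LhG4 and not over ap1cal. Of 16 floral organ identity genes, AG (1.03, SE 0.16) and CRC (1.04, SE 0.16), which specify carpels with other genes, were higher, at mean normalized counts of only 8.56 and 13.7 over all libraries. Both stood at -0.20 and -0.21 by subtraction in GR-LhG4 and were listed against ap1cal at 8 h alone. AP3 (1.00), SEP1 (1.52) and SEP2 (1.15) were listed over GR-LhG4 and not over ap1cal. In bulk SAM, more cells of a type and more RNA per cell cannot be told apart, and a contribution of single libraries was not tested.

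Of 25 sugar transporters, STP1 (2.69), the sucrose importer SUC1 (1.21, SE 0.12) and SWEET14 (1.16, SE 0.15) were higher, the last at a mean normalized count of 7.06. Of 18 alpha expansins, which loosen cell walls, EXPA2 (2.38, SE 0.18) and EXPA5 (1.44, SE 0.16) were higher, and both were shared with GR-LhG4. Of 14 salicylic acid defence genes, WRKY46 alone was listed, as lower. Over the 18 lists, 24 of 192 genes were listed at 8 h, while 0.263% of annotated genes were listed as higher and 0.0919% as lower. These lists had been drawn up with earlier results of these data known, so their shares do not measure enrichment. None of 4 leaf photosynthesis, 5 xylem and phloem and 4 anther and tapetum markers was listed.

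**Figure D4:**
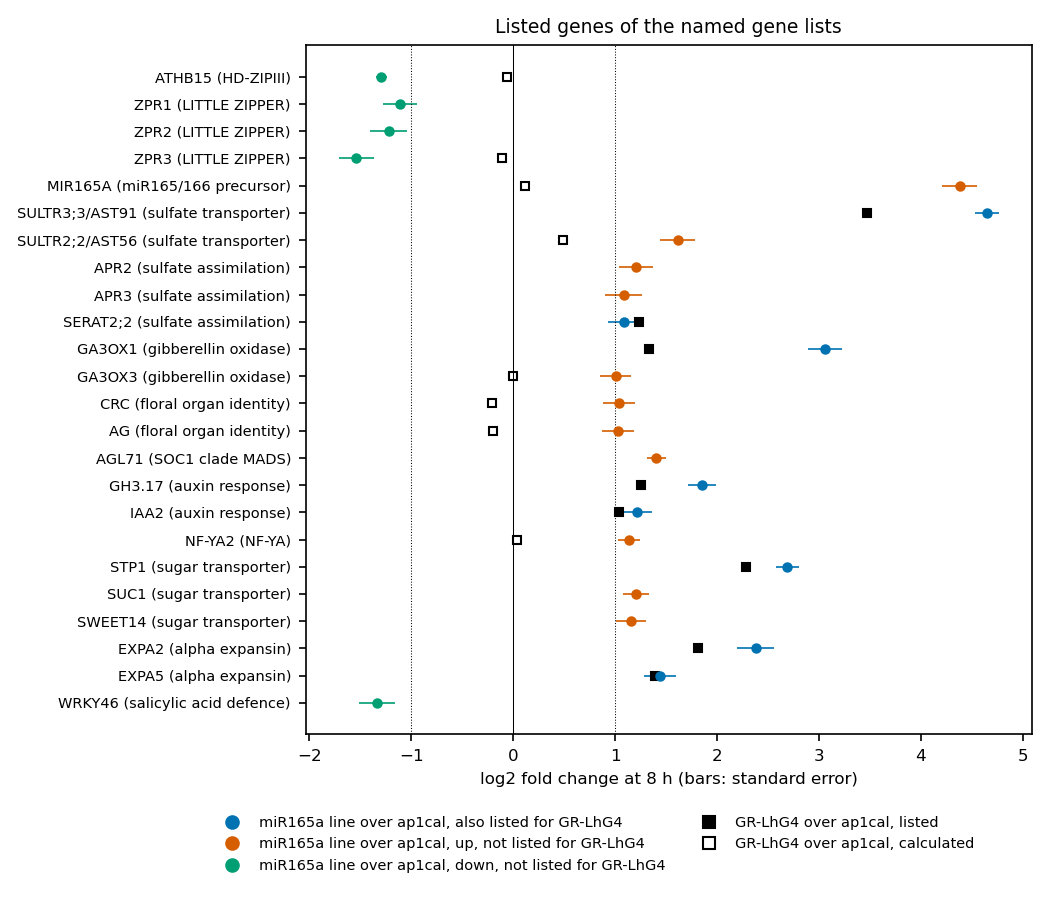
log2 fold change at 8 h in the miR165a line over ap1cal (circles with standard errors) for the 24 listed genes of the gene lists, beside GR-LhG4 over ap1cal where listed (filled squares) or found by subtraction (open squares); dotted lines mark the fold threshold. MIR165A, at 4.38 in the miR165a line and 0.11 in GR-LhG4, and AST91, at 4.65 in the miR165a line and 3.48 in GR-LhG4, are the highest of them.

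Most of the genes listed at 8 h were listed against ap1cal at other time points too, always in the same direction. The lists of the 3 other time points held 55 (4 h), 65 (12 h) and 69 (16 h) of the 100 rises, while 0.179%, 0.339% and 0.449% of annotated genes were listed there as higher. Of the 35 falls they held 14, 19 and 20 in the same order of times, while 0.0551%, 0.105% and 0.165% of annotated genes were listed as lower. All 38 shared genes were in the 16 h table, 37 in the 12 h table and 33 in the 4 h table. At any of the other time points, 35 of the 62 unshared rises and 22 of the 35 falls were listed. The tables come from separate libraries of the same lines, fitted together.

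The 40 genes listed against ap1cal at 8 h alone, 27 higher and 13 lower, had log2 folds between -1.34 and 1.61. They included LUP1 (1.49), a triterpene synthase, MES3, NF-YA2, AG, CRC, APR3, PAP1 (1.12), which activates anthocyanin genes, and WRKY46. Of the 40, 17 were also listed over GR-LhG4 at 8 h, and 14 had a mean normalized count below 50, against 18 of the 95 genes listed at other time points. Some of the 40 were listed over GR-LhG4 at other time points. AT5G44920 was lower there at 4, 12 and 16 h (-1.03, -1.20 and -1.09). PAP1 (1.24), GA3OX3 (1.10) and LOG5 (1.07) were higher there at 12 h. Being absent from a table at another time point says only that a threshold was missed there. Folds just inside the threshold were those of AT2G36950 (1.00) and GA3OX3 (1.01) among the rises and of AT2G07739 (-1.002) and ABCG33 (-1.01) among the falls; genes just outside it are not in the tables.

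The 58 genes listed at all 4 time points were 32 shared genes, 15 unshared rises and 11 falls. The 32 were all the shared genes but NAC1, WOX14, PMSR2, AT2G44940, SERAT2;2 and CYP705A2. The 15 were SADHU3-2, MIR165A, FMO, AT1G53260, AT3G52490, AT3G51180, MYB3, LBD11, AGL71, AT5G49760, BNQ2, SUC1, AT5G44680, AT1G67720 and AT5G06770, the last a zinc finger gene whose fold moved by only 0.05 over the time points. The 11 were ATHB15, ABCC2, WAKL7, AT5G37400, AT1G48490, AT3G44690, AT3G43340, AT3G43350, AT3G29642, AT3G29644 and AT3G30700. In time order, the median log2 fold of the 32 shared genes was 1.66, 1.77, 2.15 and 2.40, and 31 of them had a higher fold at 16 h than at 8 h. For the 29 of these listed at every time point in GR-LhG4 as well, the GR-LhG4 medians lay between 1.73 and 1.84, and 21 of the 29 had a higher GR-LhG4 fold at 16 h than at 8 h. Single genes moved further in GR-LhG4, by up to 1.36 over the time points for EXPA2, which was at 1.81 at 8 h and 2.80 at 16 h. The fold of the miR165a line was above that of GR-LhG4 for 11, 18, 24 and 27 of the 29 genes at the successive time points. At 8 h these genes therefore stood between the 4 h and 12 h values on this count, with a median difference between the lines of 0.13 (-0.11 at 4 h and 0.49 at 12 h).

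The 11 falls listed throughout moved little over time, with a range over the 4 time points of 0.15 to 0.39. AT1G48490 was at -2.41, -2.30, -2.33 and -2.26 at 4, 8, 12 and 16 h, and AT3G43350 at -2.98, -3.22, -2.99 and -2.86. The rise of SADHU3-2 was as steady, at 5.56, 5.38, 5.26 and 5.38. Each of these 3 genes stood at 4 h about where it stood later. MIR165A itself was at 3.32, 4.38, 3.96 and 3.72, with its highest fold at 8 h. The shared genes AT3G44220 (2.25, 3.16, 3.86 and 4.44) and EXPA2 (1.24 at the first time point and 2.38 at 8 h) had the widest ranges, 2.19 and 1.93.

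The difference in log2 fold between 8 h and another time point was tested where a gene was listed at both (Wald test on the deposited folds and SE, with Benjamini-Hochberg adjustment over 532 pairs of time points). Of the 242 pairs with 8 h, 49 passed at 0.05 (20.2%), close to the 20.3% of all pairs. The 242 pairs came from 95 genes, of which 31 had a pair that passed. Pairs of the same gene share its 8 h fold and are not independent. Against 4 h, 10 of 69 passed, and 7 of them had the larger change at 8 h. Against 12 h, 15 of 84 passed, and against 16 h, 24 of 89 did, with the smaller change at 8 h in 15 and 23 of them. Of the pairs of shared genes 35 of 108 passed (32.4%), and of those of unshared genes 14 of 134 (10.4%), a difference that was not tested. MIR165A was higher at 8 h than at 4 h by 1.06 (SE 0.24, adjusted p = 2.21e-04) and than at 16 h by 0.66 (SE 0.24, adjusted p = 0.0358). Its difference from 12 h, 0.42 (SE 0.24, adjusted p = 0.246), did not pass, so the 8 h and 12 h folds were not told apart. ATHB15 was less reduced at 8 h than at 12 h by 0.25 (SE 0.08, adjusted p = 0.0105). A gene had to pass the fold threshold at both times to be tested, so larger changes into or out of the tables are missing from these counts.

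**Figure D5:**
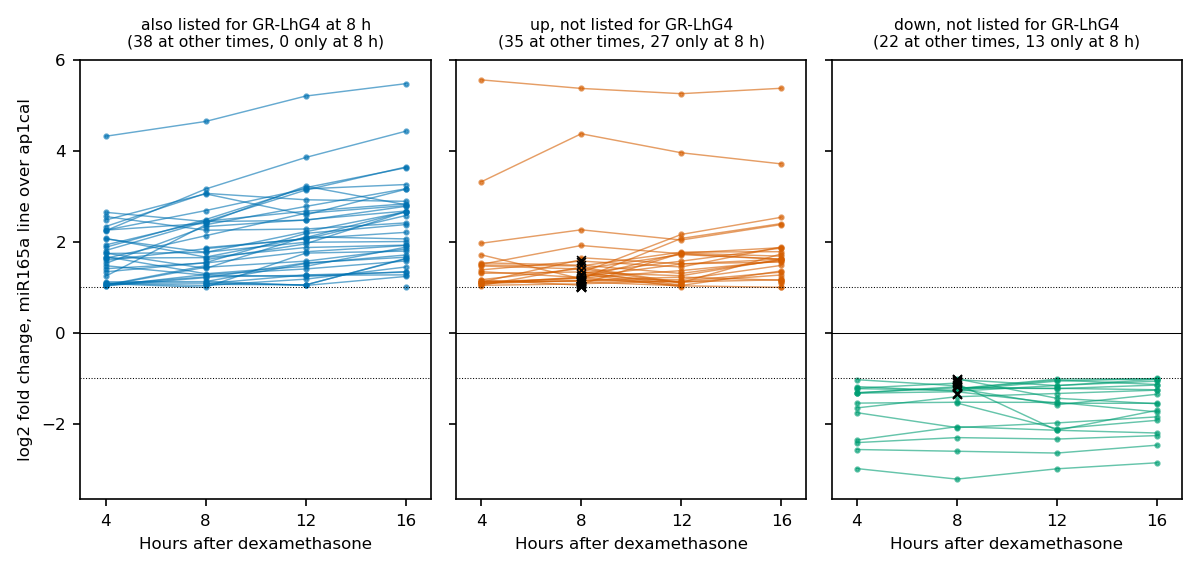
log2 fold change in the miR165a line over ap1cal at 4, 8, 12 and 16 h for the 135 genes, in panels for genes shared with GR-LhG4 at 8 h, unshared rises and falls. Lines join the time points at which a gene was listed (38, 35 and 22 genes), crosses mark genes listed at 8 h alone (0, 27 and 13), and dotted lines mark the fold threshold; many shared genes climb to 16 h, while most falls stay level.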

How the data were processed

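RNA-Seq of the miR165a line, GR-LhG4 and ap1cal at 4, 8, 12 and 16 h after dexamethasone was used, through the authors' 12 tables of comparisons between lines. Per the study's methods, the authors used FastQC and cutadapt for quality control and trimming, TopHat for alignment to TAIR10, HTSeq for exonic counts and DESeq2 for the comparisons; versions and the strand setting are not given in the sources used here. The deposited signal of a gene is a mean normalized count over all libraries, identical in every table. The log2 fold change, with an SE, is as deposited from the authors' model, and so is the adjusted p-value of its test. The SE was at most 0.183 for all 135 genes, whose mean normalized counts went down to 5.01. AT5G45310 had an SE of 0.157 at a mean normalized count of 5.01, and AT3G44970 had 0.139 at 5.87. Such small SE at low counts should not be read as the spread between libraries, also where the Wald test uses them. Whether the model shrank the folds and their SE is not stated in the sources used here. The tables hold only genes past the authors' thresholds, so all folds, errors and calls are the authors', and no model was fitted again. Library depth and replicate spread were not analysed here.

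Gene lists were intersected, and a fold listed in 2 of the 3 comparisons at 8 h gave the other by subtraction. Gene classes, positions and sequences came from RefSeq TAIR10.1, whose 38094 genes are the denominator of background shares. All 135 genes matched. Differences between time points were tested with a two-sided Wald test that takes time points as independent, so its p-values are approximate. Tested on simulated data with the 532 pairs of that comparison, it recovered 98.0% of planted differences of 1 and 45.5% of 0.5 (log2), and called at most 1.51% of unchanged pairs. The simulated errors were drawn independently from the same SE that the test uses, and no fold threshold was applied. These rates therefore check the calculation and say nothing of false calls in the real folds. The study calls the libraries of a group biological replicates.

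Named genes were the 10 largest rises and falls, listed members of the gene lists, the 5 shared genes at each end of the difference from GR-LhG4, the 2 genes nearest the fold threshold on each side and genes listed at all 4 time points; a few others were chosen after their values were seen. Genes, lists and tests were chosen with earlier results of these data known. Alternatives were a stricter fold, adjusted p or mean count, protein-coding genes alone, other activator lists, other p adjustment and other mismatch limits. Python 3.11.15, numpy 2.4.6, pandas 2.3.3, scipy 1.17.1 and matplotlib were used.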

Additional observations from a re-analysis of the deposited data

Results flagged for a closer look

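In 49 cases the log2 fold change over ap1cal differed between 8 h and another time point by the Wald test, at an adjusted p of at most 0.05 over 532 pairs of time points. They came from 31 genes, and cases of the same gene share its 8 h fold. The values below are the fold at 8 h less the fold at the other time point on the log2 scale. They were not weighed further.

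Against 4 h, the change was larger at 8 h for EXPA2 (1.13), MIR165A (1.06), AT3G44220 (0.92), AT1G55950 (0.81), ALPHA DOX2 (0.73), AT2G39710 (0.52) and STP1 (0.43). It was smaller at 8 h for AT5G44680 (-0.53), ADS1 (-0.38) and AT1G80280 (-0.30). EXPA2 and MIR165A thus showed the widest gains from 4 h to 8 h among the genes tested.

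Against 12 h, the rise was smaller at 8 h by more than 0.65 for AT5G44680 (-0.89), PHO1 (-0.84), AT4G14819 (-0.82), AT2G36950 (-0.75), AT5G26290 (-0.70), AT5G65130 (-0.70), AT3G19430 (-0.69), AT3G44220 (-0.69) and AT3G26960 (-0.68). Smaller gaps were those of AT5G48900 (-0.64), AST91 (-0.56), STP1 (-0.48) and AT1G70430 (-0.45). The falls of ZPR1 (1.03) and ATHB15 (0.25) were also smaller at 8 h than at 12 h.

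Against 16 h, the rise was smaller at 8 h by about 1 or more for AT3G44220 (-1.27), PHO1 (-1.22), AT5G44680 (-1.22), AT3G19430 (-1.20), AT5G26290 (-1.14), WOX14 (-1.06) and AT3G14395 (-0.9996). Next were AT1G70430 (-0.89), AT5G48900 (-0.84), AST91 (-0.83), AT2G36950 (-0.80), EXPA2 (-0.79) and NAC1 (-0.71). Gaps from 0.5 to 0.7 in size were those of AT3G05640 (-0.66), BNQ2 (-0.66), AT5G65130 (-0.65), ADS1 (-0.58), STP1 (-0.57) and PMEPCRF (-0.55). The smallest were those of AT3G06760 (-0.38), AT1G67720 (-0.33) and LCD (-0.28). ATHB15 (0.25) was less reduced at 8 h, and MIR165A (0.66) alone had the larger change at 8 h.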

How the results depend on the processing

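With a log2 fold of at least 1.5 the table kept 39 genes, 32 higher and 7 lower, of which 17 were shared with GR-LhG4 and 36 were listed at another time point, and the medians of the rises became 2.41 for shared and 1.65 for unshared genes. At adjusted p values up to 1e-10, 17 falls were left and the median of the shared rises was 1.88. Bonferroni adjustment left 16 differences between 8 h and another time point in place of 49. A limit of 3 mismatches left 0 of the 135 listed genes with a miR165a site, since that of ATHB15 has 4. No other alternative that was tried moved a count by over 1.5 times or a median by more than the median standard error.

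No paired analysis was possible because the tables hold no values per library, although groups share replicate numbers in the labels. Leaving out replicates, other tests and other normalizations were not run for the same reason, and the weight of single libraries in any fold was not tested. The lowest mean normalized counts were those of AT5G45310 (5.01), AT3G44970 (5.87), HIPP22 (6.98), SWEET14 (7.06) and AG (8.56).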
